A study of Mus musculus with 8 samples.

Results

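The iron- and 2-oxoglutarate-dependent dioxygenases besides the TET proteins were described across 8 RNA-seq libraries of mouse leukaemia cells. The members are 47 genes listed by symbol: 16 histone demethylases, 9 prolyl and lysyl hydroxylases, 9 ALKBH and FTO enzymes and 13 other dioxygenases. The class called hydroxylases below holds only Egln1, Egln2, Egln3, P4ha1, P4ha2, P4htm, Plod1, Plod2 and Plod3. Jmjd4, Jmjd6 and Ogfod1, described below as lysyl or prolyl hydroxylases, are counted among the other dioxygenases. The rule is a list of symbols and uses no measured value, although the list was chosen with earlier results of these data known. Of the 47, 46 were found among the 52459 genes of the raw count table, and Tmlhe, which makes the first intermediate of carnitine synthesis, was not analysed here.

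These enzymes bind an iron ion, split molecular oxygen and turn 2-oxoglutarate into succinate while they hydroxylate or demethylate their substrate. Ascorbate keeps their iron reduced, and 2-hydroxyglutarate, which mutant IDH enzymes make in acute myeloid leukaemia, competes with 2-oxoglutarate. The histone demethylases remove methyl groups from lysines of histone tails, the EGLN prolyl hydroxylases mark the hypoxia-inducible factors (HIF) for destruction, the P4HA and PLOD enzymes modify collagen, and the ALKBH and FTO enzymes demethylate or hydroxylate nucleic acids and a few proteins. RNA levels say nothing of how active an enzyme is.

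Every library was made from AE9a-positive tumour cells harvested from the spleen of 1 mouse at the terminal stage. AE9a, a shortened RUNX1-RUNX1T1 fusion protein, drives acute myeloid leukaemia in mice. All groups share 1 construct, labelled RTA shTet2: cKit-positive marrow of C57BL/6J mice was given AE9a with a doxycycline-inducible hairpin against Tet2 and transplanted, with wild-type support marrow, into lethally irradiated C57BL/6J recipients aged 6 to 8 weeks. Secondary recipients received splenic tumour cells of moribund primaries, again with support marrow. The groups were 2 secondary recipients that got PBS and no doxycycline (numbered 21 and 23, with Tet2 restored by their label), 2 that got ascorbate on doxycycline (28 and 30), 1 primary recipient on doxycycline (12, with no replicate) and 3 secondary recipients that got PBS on doxycycline (16, 17 and 19, called PBS knockdown). Loss of doxycycline and return of Tet2 cannot be told apart here, since they coincide. A hairpin lowers a transcript without deleting the gene, and host and support cells can stay in the sample.

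Total counts ran from 18.1 M (mouse 28) to 34.2 M (mouse 12), and mitochondrial genes took 5.16% to 17.1% of them. Levels are given as CPM (read counts over TMM-scaled totals) or as the deposited FPKM where genes are compared per length. Tet2, the hairpin's target, had 14.1 and 23.1 CPM in the labelled restored mice 21 and 23, 13.7 and 11.7 CPM in the ascorbate mice, 9.26 CPM in the primary mouse and 12.6, 12.8 and 13.4 CPM in PBS knockdown mice. Mouse 21 therefore lay close to the PBS knockdown libraries, and the label is used below as a label only. Of the progenitor markers, Kit had 54.4 to 206 CPM and Myb 180 to 452 CPM over the 8 libraries, while Mpo and Cd34 were near absent in the secondary libraries (at most 1.65 and 2.70 CPM) and had 6.33 and 19.8 CPM in the primary one. With Runx1t1, the 5 progenitor markers summed to 499 to 581 CPM in labelled restored and 427 to 467 in ascorbate libraries. Their sum was 869 CPM in the primary and 439 to 681 CPM in PBS knockdown libraries. Summed macrophage markers were 12.3 to 27.4 CPM in labelled restored, 23.2 to 23.5 in ascorbate and 20.1 in primary libraries, against 34.9 to 67.0 CPM in PBS knockdown libraries. Summed erythroid markers were far higher, 7157 to 10650 CPM in labelled restored, 5206 to 9874 in ascorbate, 3916 in primary and 4940 to 12030 CPM in PBS knockdown libraries. In bulk RNA, fewer cells of a type and less RNA per cell cannot be told apart.

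Most members were expressed in these cells. In PBS knockdown libraries 40 of 46 had a mean of at least 1 FPKM and 14 had at least 10 FPKM, and their median was 7.47 FPKM, against 6.57 FPKM over the 12137 genes tested. Alkbh5, which removes N6-methyladenosine (m6A) from RNA, had the highest level, 26.9 ± 3.44 FPKM (SD, n = 3). Kdm5c, an X-linked demethylase of H3K4, followed with 23.1 ± 2.54 FPKM, and then Alkbh4 with 20.6 ± 4.22, Alkbh8 with 17.8 ± 4.07 and Egln2 with 17.3 ± 2.84 FPKM. Alkbh5 and Kdm5c were further apart than either SD, and each of the other neighbours among these 5 lay within an SD of the next. By class, the median was 8.69 FPKM for histone demethylases, 1.90 for prolyl and lysyl hydroxylases, 7.51 for ALKBH and FTO enzymes and 7.37 for the others.

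Within the histone demethylases, Kdm5c stood at the top and Kdm7a, a demethylase of H3K9 and H3K27, at the bottom with 0.213 ± 0.0777 FPKM. Among the others the range ran from Phyh (17.1 ± 1.61 FPKM), which starts the breakdown of phytanic acid in peroxisomes, to Hspbap1 (0.953 ± 0.230 FPKM), a JmjC protein named for binding a small heat shock protein. The lowest of the ALKBH and FTO enzymes, Alkbh6, still had 3.39 ± 0.952 FPKM. The Y-linked paralogs of Kdm5c and Kdm6a gave no signal to mix with them: Kdm5d had 1 count in the primary library and 0 in the others, and Uty had 0 counts in all 8, while Xist had 217 to 352 CPM.

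**Figure D1:**
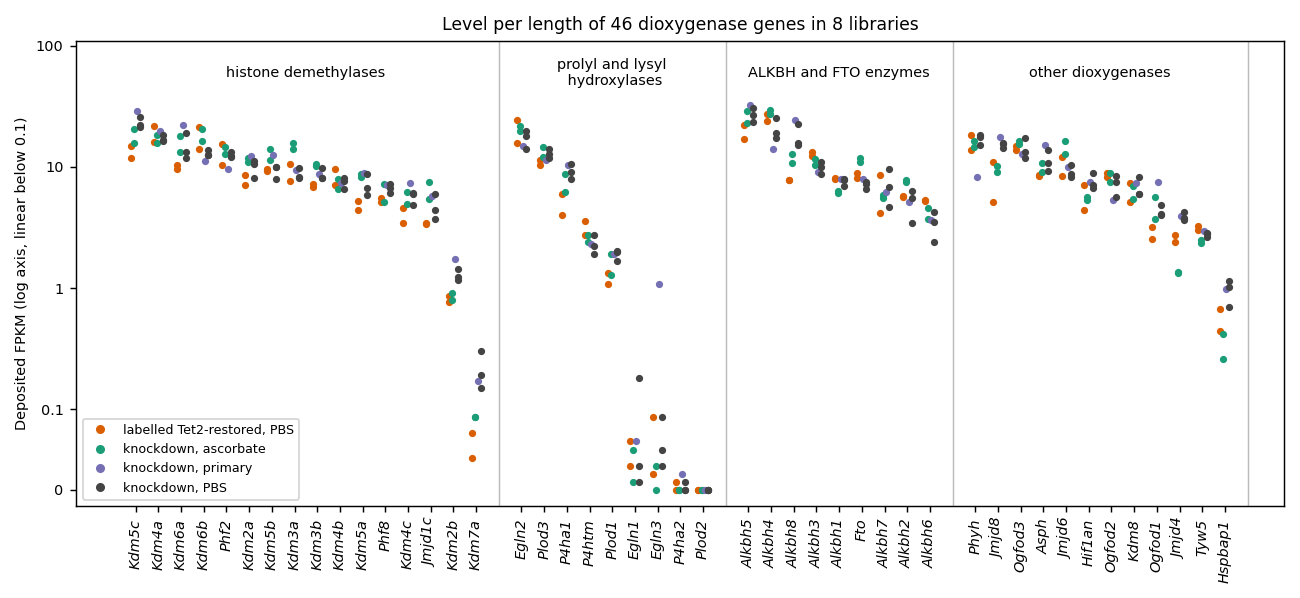
Deposited FPKM (log axis, linear below 0.1) of the 46 members in each of 8 libraries, grouped by enzyme class and ordered by the PBS knockdown mean; each point is 1 library, coloured by group. Alkbh5 tops the set at 17.1 to 32.7 FPKM, Plod2 is at 0 in all 8 libraries, and the primary library alone lies near 1 FPKM for Egln3.

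Of the 3 EGLN oxygen sensors, Egln2 had nearly all of the counted RNA. It shares exonic bases with Cyp2t4 on the other strand. Egln2 had 45.1 and 68.6 CPM in labelled restored mice, 61.1 and 55.7 CPM in ascorbate mice, 41.1 CPM in the primary mouse and 39.8, 55.9 and 50.4 CPM in PBS knockdown mice. The groups overlapped. Egln2 held 92.9% of the summed EGLN FPKM in the primary library and 98.7% to 99.8% in the 7 secondary ones. Egln1, in most tissues the main HIF prolyl hydroxylase, had 1 to 18 counts per library. Egln3, a HIF target in many cell types, had 100 counts in the primary library (2.84 CPM, exact Poisson 95% interval 2.31 to 3.45) and 0 to 6 counts in each secondary library. The collagen enzymes were split as widely. Plod3, a lysyl hydroxylase that also adds sugars to collagen, had 12.9 ± 1.14 FPKM and P4ha1, a catalytic subunit of collagen prolyl hydroxylase, 9.15 ± 1.26 FPKM in PBS knockdown libraries. P4ha2 had 0 to 5 counts and Plod2 had 0 counts in every library. A count of 0 allows up to 0.0852 to 0.183 CPM (3 counts), depending on the library. Counting intervals and limits cover counting error only.

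The promoters of the 3 EGLN genes are shown because the genes differ so widely in level although HIF is known to induce the low Egln3. Each line holds 250 bases before and 50 after the start site, from RefSeq (build GRCm38.p6), read 5′ to 3′ on the gene's strand. Capitals mark the HIF core motif, ACGTG or GCGTG, on either strand (CACGT or CACGC on the other), and neighbouring matches can share bases. All 3 genes lie on the minus strand. The Egln1 window is chr8:124949205-124949504, the Egln2 window chr7:27166753-27167052 and the Egln3 window chr12:54203825-54204124.
Egln1: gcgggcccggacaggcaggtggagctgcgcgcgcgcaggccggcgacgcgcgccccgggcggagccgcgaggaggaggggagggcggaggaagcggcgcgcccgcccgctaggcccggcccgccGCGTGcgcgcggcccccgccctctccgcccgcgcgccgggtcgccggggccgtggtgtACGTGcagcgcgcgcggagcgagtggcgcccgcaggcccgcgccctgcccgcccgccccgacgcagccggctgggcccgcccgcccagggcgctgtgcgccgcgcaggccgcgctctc
Egln2: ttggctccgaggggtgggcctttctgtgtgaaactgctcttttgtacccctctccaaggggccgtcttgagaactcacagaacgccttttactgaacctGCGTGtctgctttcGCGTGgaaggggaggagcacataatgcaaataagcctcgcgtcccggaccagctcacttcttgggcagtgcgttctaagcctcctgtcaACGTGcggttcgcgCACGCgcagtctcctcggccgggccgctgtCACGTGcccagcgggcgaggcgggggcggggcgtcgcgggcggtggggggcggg
Egln3: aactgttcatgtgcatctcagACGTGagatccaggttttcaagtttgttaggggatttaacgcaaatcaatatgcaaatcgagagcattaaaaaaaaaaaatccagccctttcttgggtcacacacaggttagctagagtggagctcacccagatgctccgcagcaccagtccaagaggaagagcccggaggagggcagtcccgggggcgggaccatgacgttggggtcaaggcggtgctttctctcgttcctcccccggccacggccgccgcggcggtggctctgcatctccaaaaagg
The Egln1 window holds 2 matches, the Egln2 window 6 and the Egln3 window 1. A second Egln2 promoter in the table, at chr7:27165679-27165978 on the minus strand and not printed, holds 1 match. Of the members, 38 matched the RefSeq table by symbol with 48 promoters, of which 30 (62.5%) held the motif, against 43.8% of 32851 mouse promoters of that length. By class the motif was in 8 of 9 hydroxylase, 11 of 18 histone demethylase, 5 of 11 ALKBH and FTO and 6 of 10 other promoters. Both forms of the motif hold a CG, and these shares were not matched for the CG or GC content of the promoters. A match describes the letters and is no evidence of binding.

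Ascorbate under sustained knockdown was compared with PBS, the question being which dioxygenase transcripts differ when the leukaemia is exposed to their cofactor. Jmjd4 fell and Fto rose, and no other member of the 42 tested passed the threshold (edgeR quasi-likelihood test, Benjamini-Hochberg adjusted p under 0.05). That is 2 of 42 members, against 2.86% of all 12137 genes tested. Egln1, Egln3, P4ha2 and Plod2 did not pass the filter on low counts. The higher call stands beside 1.09% of all genes and the lower one beside 1.77%. At an unadjusted p under 0.05, 6 members were higher and 6 lower, against 10.7% and 12.9% of all genes.

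Jmjd4 encodes a lysyl hydroxylase of the translation termination factor eRF1. It had 9.71 and 9.66 CPM in ascorbate mice 28 and 30, against 30.2, 26.1 and 27.2 CPM in PBS knockdown mice. The 2 ascorbate libraries lay far below all 3 PBS libraries, and the log2 fold change was -1.53 (SE 0.19, adjusted p = 0.0132). Mice 21 and 23 lay between, at 20.03 and 17.4 CPM, and the primary mouse had 27.8 CPM. Jmjd4 shares exonic bases with Snap47 on the opposite strand, so without a stated strand setting their reads cannot be told apart. Snap47 had 14.3 to 15.9 CPM in ascorbate and 17.4 to 21.5 CPM in PBS knockdown mice (log2 fold change -0.39, adjusted p = 0.520).

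Fto encodes the other m6A demethylase, which also acts on the cap-adjacent base of mRNA. It had 157 and 146 CPM in ascorbate mice, against 94.0, 99.8 and 85.9 CPM in PBS knockdown mice. The groups were well apart, with a log2 fold change of 0.69 (SE 0.14, adjusted p = 0.0424). Fto had 109 and 117 CPM in labelled restored mice and 102 CPM in the primary mouse, so that the ascorbate libraries were the highest of all 8. Fto shares exonic bases with 4831440D22Rik and Gm45427 on the other strand. Alkbh5, which has the same RNA substrate, had 139 and 174 CPM in ascorbate mice, against 183, 143 and 161 CPM in PBS knockdown mice (log2 fold change -0.062, SE 0.18, adjusted p = 0.863).

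Kdm3a, a demethylase of H3K9 and a known HIF target, had 117 and 132 CPM in ascorbate mice, against 81.4, 67.1 and 68.4 CPM in PBS knockdown mice. Its log2 fold change of 0.78 (SE 0.18, adjusted p = 0.0534) did not pass the threshold, although the groups did not overlap. Labelled restored mice had 64.6 and 87.8 CPM, 1 on either side of the PBS range. Hspbap1 had 1.22 and 1.965 CPM under ascorbate, against 5.28, 4.68 and 3.23 CPM under PBS, a log2 fold change of -1.46 (SE 0.41, adjusted p = 0.0845). Jmjd6, a lysyl hydroxylase of splicing factors, had 60.3 and 77.4 CPM, against 39.0, 49.6 and 41.6 CPM (log2 fold change 0.66, SE 0.21, adjusted p = 0.105). Alkbh8, which completes wobble uridine modifications in tRNA, had 95.7 and 114 CPM, against 198, 138 and 134 CPM (log2 fold change -0.59, SE 0.20, adjusted p = 0.126). For each of these 4 genes all ascorbate libraries lay on the same side of all PBS libraries. Such separate ranges were found for 8 members higher and 10 lower, against 22.4% and 23.5% of all genes.

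**Figure D2:**
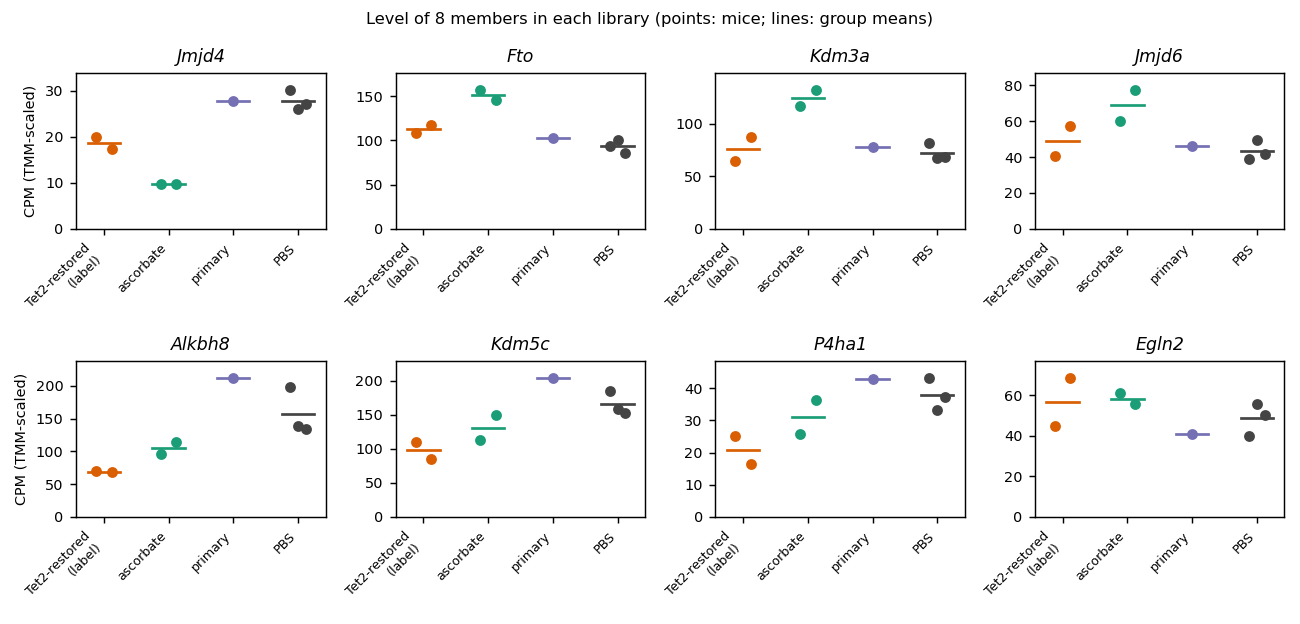
CPM on TMM-scaled totals of 8 members in each library, with the y axis from 0; points are mice and lines group means, in the order labelled Tet2-restored, ascorbate, primary and PBS knockdown. Jmjd4 is lowest in the ascorbate mice (9.71 and 9.66 CPM), where Fto is highest (157 and 146 CPM), and Alkbh8 is lowest in the labelled restored mice.

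The calls rested on few libraries. Jmjd4 passed in 16 of 20 settings (the fit above, 12 alternatives and 7 left-out libraries), Fto in 12 and Kdm3a in 9. Of the members, 0 passed without mouse 16, 19, 28 or 30, where 0.0415%, 0.125%, 0.0156% and 0.0547% of all genes did. Without mouse 17 it was 1 member (0.722% of genes), and without mouse 21 or 23 it was 4 (6.24% and 6% of genes). The signs of Jmjd4 and Fto stayed as above in all 20 settings. With scaling by library totals, which moves the median of all genes to -0.12, Jmjd4 was the only member that passed. That count is not set beside a share of all genes here. DESeq2 called 5 members (11% of genes), limma voom 4 (9.1%) and edgeR without a filter on low counts 7 (6.59%). Macrophage marker sums were 23.2 to 23.5 CPM under ascorbate and 34.9 to 67.0 CPM under PBS (8 of 8 markers lower). Mast cell and basophil sums were 600 to 605 CPM and 266 to 381 CPM (5 of 5 higher). B cell sums were 9.59 to 18.9 CPM and 22.4 to 25.4 CPM (4 of 4 lower). Neutrophil sums were 6.11 to 11.7 CPM and 0.323 to 8.13 CPM (5 of 5 higher). Erythroid sums were 5206 to 9874 CPM and 4940 to 12030 CPM (4 of 6 lower). Progenitor sums were 427 to 467 CPM and 439 to 681 CPM (4 of 5 lower). The part of these markers in the ascorbate results was not tested.

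By class, ascorbate gave no common direction. The median log2 fold change was 0.11 over 16 histone demethylases (9 above 0), 0.041 over 5 hydroxylases (3 above 0), 0.16 over 9 ALKBH and FTO enzymes (5 above 0) and -0.16 over 12 others (4 above 0), against -0.012 over all genes. The hydroxylase median took the other sign with library totals, with the length and GC correction described below, without a filter on low counts (-0.28), with all 8 libraries (-0.24) and without mouse 16, 21, 23 or 30. The fit of all 8 libraries also tests the near-absent Egln1 and Egln3, and the fit without a filter tests P4ha2 as well. Those medians therefore cover more hydroxylases. Kdm5b and Kdm6b, demethylases of H3K4 and H3K27, were at 0.46 (adjusted p = 0.136, SE 0.16) and 0.52 (adjusted p = 0.152, SE 0.19) on the log2 scale. Kdm2b, which recruits a Polycomb complex to CpG islands, was at -0.58 (adjusted p = 0.154, SE 0.22). Differences between classes were not tested.

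The promoters of Jmjd4, Fto and Kdm3a are shown as the genes this comparison turns on, in the same format. They lie at chr11:59449795-59450094 on the plus strand, chr8:91313275-91313574 on the plus strand and chr6:71632868-71633167 on the minus strand.
Jmjd4: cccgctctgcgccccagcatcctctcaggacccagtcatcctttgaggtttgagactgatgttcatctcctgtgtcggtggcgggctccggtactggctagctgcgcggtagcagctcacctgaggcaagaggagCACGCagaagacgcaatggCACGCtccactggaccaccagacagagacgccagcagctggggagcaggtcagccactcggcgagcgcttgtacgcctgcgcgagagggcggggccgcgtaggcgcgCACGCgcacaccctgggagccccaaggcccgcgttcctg
Fto: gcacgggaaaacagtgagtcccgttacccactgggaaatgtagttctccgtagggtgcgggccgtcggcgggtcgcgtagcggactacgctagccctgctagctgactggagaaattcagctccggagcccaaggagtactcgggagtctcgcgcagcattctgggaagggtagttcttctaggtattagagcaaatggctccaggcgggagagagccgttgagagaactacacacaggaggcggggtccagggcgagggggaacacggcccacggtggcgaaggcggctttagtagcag
Kdm3a: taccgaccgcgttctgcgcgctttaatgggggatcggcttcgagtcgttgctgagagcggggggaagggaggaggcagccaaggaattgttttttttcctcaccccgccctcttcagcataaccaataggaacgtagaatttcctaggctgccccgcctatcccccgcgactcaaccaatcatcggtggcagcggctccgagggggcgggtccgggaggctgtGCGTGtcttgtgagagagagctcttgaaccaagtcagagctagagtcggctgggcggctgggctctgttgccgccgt
The HIF core is present 3 times for Jmjd4, 0 times for Fto and 1 time for this promoter of Kdm3a. The other 2 Kdm3a promoters in the table hold 0 matches.

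The labelled Tet2-restored libraries were compared with the PBS knockdown libraries to ask which dioxygenases differ after doxycycline withdrawal. No member passed, nor did any gene: 0 of 12137 (0%) had an adjusted p under 0.05 in edgeR. At an unadjusted p under 0.05 there were 3549 genes (29.2%), among them 3 members higher and 13 lower, against 14.1% and 15.2% of all genes. The Wald test of DESeq2 called 1951 genes (16.1%), 6 of them members, limma voom and the length and GC correction called 0 (0%), and edgeR without a filter on low counts called 7 members (9.71% of genes). Without mouse 21, the labelled restored mouse whose Tet2 lay near the knockdown level, edgeR called 1692 genes (13.3%) and 5 members, with the spread for the lone mouse 23 taken from the replicated groups.

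Alkbh8 had the smallest p among members. It had 70.4 and 68.1 CPM in labelled restored mice, against 198, 138 and 134 CPM in PBS knockdown mice, less than in any other library. The log2 fold change of -1.18 (SE 0.21, adjusted p = 0.0502) missed the threshold and passed in 6 of 20 settings, including the one without mouse 21 (adjusted p = 0.0311). Kdm5c had 110 and 85.4 CPM, against 186, 158 and 152 CPM (log2 fold change -0.76, SE 0.19, adjusted p = 0.0576). The 2 mice again lay below all other libraries. Kdm7a had 0.701 and 0.454 CPM, against 2.98, 1.52 and 1.90 CPM (log2 fold change -1.87, SE 0.49, adjusted p = 0.0630), from only 9 to 74 counts per library.

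P4ha1 had 25.2 and 16.6 CPM in labelled restored mice, against 43.3, 33.1 and 37.4 CPM in PBS knockdown mice (log2 fold change -0.86, SE 0.24, adjusted p = 0.0695). Jmjd8, a JmjC protein of the endoplasmic reticulum, had 31.3 and 14.4 CPM, against 43.4, 42.9 and 39.6 CPM (log2 fold change -0.88, SE 0.28, adjusted p = 0.0885). Mouse 23 was lower than mouse 21 for both genes. Jmjd4 had a log2 fold change of -0.58 (SE 0.18, adjusted p = 0.0855) from the values given above. Jmjd8 overlaps Stub1 and Mir3082 on the other strand. Stroma is a source of collagen enzymes, and its markers were near 0: Col3a1, Pdgfra and Pdgfrb had 0 counts in all 8 libraries, Col1a1 had 0.0412 and 0 CPM in labelled restored mice and 1.40 to 2.11 CPM in PBS knockdown mice, and the 7 markers summed to 1.16 to 1.69 and 3.41 to 8.03 CPM. Summed macrophage markers were 12.3 to 27.4 and 34.9 to 67.0 CPM, with 8 of 8 lower in the fit. Mast cell and basophil markers summed to 760 to 1023 CPM in labelled restored and 266 to 381 CPM in PBS knockdown mice, with 5 of 5 higher and a median log2 fold change of 2.13. In the same order, neutrophil markers summed to 5.61 to 10.2 and 0.323 to 8.13 CPM (5 of 5 higher). B cell markers summed to 11.2 to 23.7 and 22.4 to 25.4 CPM (4 of 4 lower), and erythroid markers to 7157 to 10650 and 4940 to 12030 CPM (5 of 6 lower). Progenitor markers summed to 499 to 581 and 439 to 681 CPM (3 of 5 lower, log2 fold changes from -3.04 to 1.13). The part of these markers in the results of this comparison was not tested.

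On the other side, Kdm6b had 101 and 151 CPM in labelled restored mice, against 88.3, 88.3 and 95.8 CPM in PBS knockdown mice (log2 fold change 0.47, SE 0.19, adjusted p = 0.143). Alkbh6, whose substrate is not well defined, had a log2 fold change of 0.66 (SE 0.26, adjusted p = 0.132), and Alkbh3, which repairs alkylated DNA and RNA, 0.39 (SE 0.17, adjusted p = 0.154). None of the 3 passed. Ranges were separate for 8 members higher and 19 lower, against 24.9% and 24.5% of all genes.

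**Figure D3:**
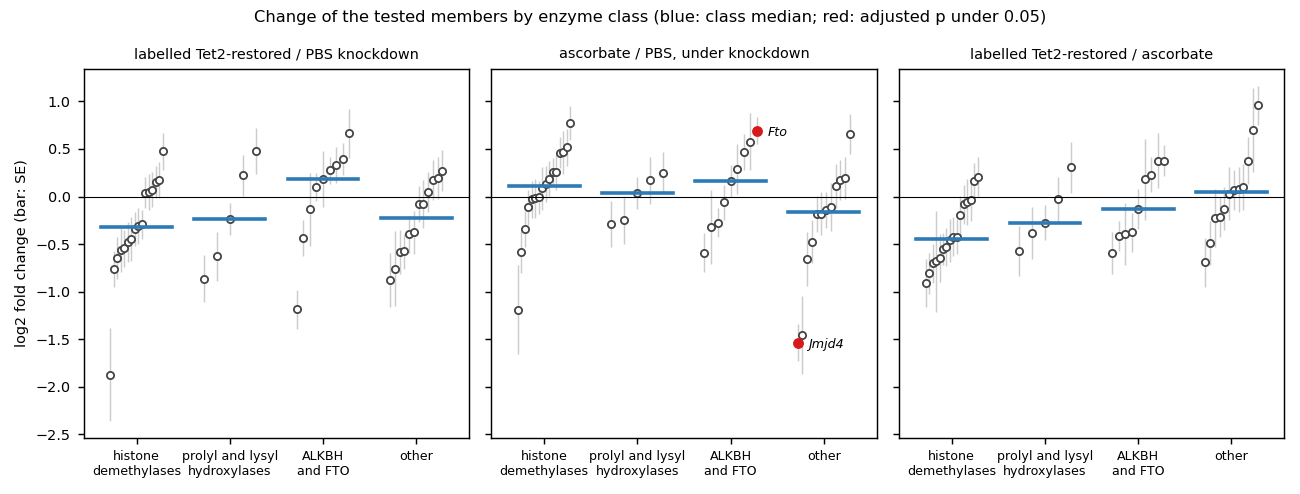
Log2 fold change (points) with its SE (bars) of the 42 tested members in 3 comparisons of the 7 secondary libraries, by enzyme class; blue lines are class medians and red points passed an adjusted p of 0.05. Jmjd4 (-1.53) and Fto (0.69) under ascorbate are the only red points, and the histone demethylase median is -0.32, 0.11 and -0.44 from left to right.

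The histone demethylases as a class had a median log2 fold change of -0.32 in labelled restored mice, with 10 of 16 below 0, against -0.0020 over all genes. The hydroxylases had -0.23 (3 of 5 below 0), the ALKBH and FTO enzymes 0.18 (3 of 9 below 0) and the others -0.23 (8 of 12 below 0). Histone demethylase genes are long. Their median length behind the deposited FPKM, recovered from the ratio of counts to FPKM for each gene, was 8.85 kb. That length was 4.003 kb for hydroxylases, 3.16 kb for ALKBH and FTO enzymes, 3.70 kb for the others and 3.83 kb over all genes tested. Across the 12137 genes the fold change was lower for longer genes (Spearman's rho = -0.38), and across the 42 members rho was -0.40. Each library was also set against the PBS knockdown mean over 13024 genes. There rho with length was -0.44 and -0.27 in labelled restored mice 21 and 23. It was 0.35, -0.33 and -0.058 in PBS knockdown mice 16, 17 and 19, so the trend ran both ways within that group. It was -0.29 and -0.12 in ascorbate mice 28 and 30, and 0.29 in primary mouse 12. These values share libraries and are described without a test.

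When a smooth curve of length and GC content was fitted in each library and taken out, rho over all genes was -0.0065, and the histone demethylase median moved to 0.00084 with 8 of 16 below 0. The hydroxylase median was then -0.34, the ALKBH and FTO median 0.052 and that of the others -0.25. Kdm5c had a log2 fold change of -0.76 before the correction and -0.63 (SE 0.17, adjusted p = 0.0786) after it. Alkbh8 had -1.18 before and -0.75 (SE 0.14, adjusted p = 0.0660) after, and Kdm5a, another H3K4 demethylase, had -0.55 before the correction and -0.043 (SE 0.13, adjusted p = 0.855) after.

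**Figure D4:**
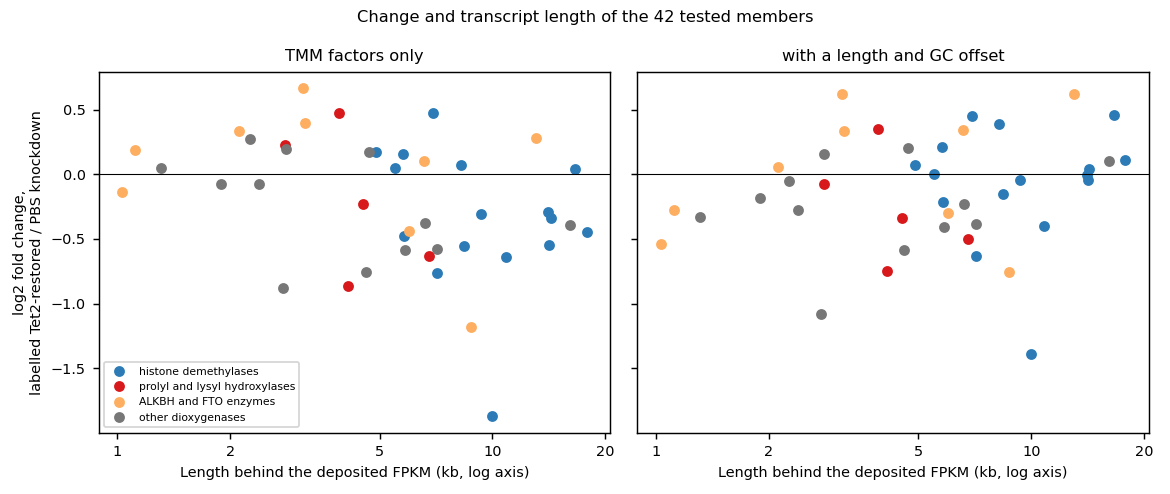
Log2 fold change of labelled Tet2-restored against PBS knockdown libraries for the 42 tested members (1 point each, coloured by class) against the length behind the deposited FPKM in kb on a log axis, with TMM factors only (left) and with the length and GC offset (right). The downward slope on the left (rho = -0.40) is not seen on the right (rho = 0.17).

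With the same correction 5 members passed the threshold under ascorbate, of 557 genes (4.59%). They were Jmjd4 (-1.41, adjusted p = 0.0142), Fto (0.84, adjusted p = 0.0269), Kdm3a (0.98, adjusted p = 0.0220), Jmjd1c (0.73, adjusted p = 0.0269) and Kdm5b (0.62, adjusted p = 0.0313). JMJD1C has been described in human cells as a partner of the RUNX1-RUNX1T1 fusion. Jmjd4 and Fto had also passed without the correction. Across all genes rho with length was -0.24 before it and -0.0099 after it. Across the 42 members rho was 0.014 before it and 0.28 after it. The lengths of Kdm3a, Jmjd1c and Kdm5b were 8.225, 17.8 and 16.6 kb. The histone demethylase median under ascorbate was 0.11 without the correction and 0.27 with it, then with 12 of 16 above 0.

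The labelled restored and ascorbate libraries were also set against each other, 2 against 2. In edgeR 1 of 12137 genes passed (0.00824%) and 0 members did. At an unadjusted p under 0.05, 2 members were higher and 10 lower, against 8.85% and 7.35% of all genes. The length and GC correction called 0 members (0.0247% of genes) and limma voom 0 (0.00824%). DESeq2 called 4 members among 444 genes (3.66%), and so did edgeR without a filter on low counts (2.56% of genes). The 4 were Jmjd4, Jmjd1c, Kdm5a and Kdm3a. Jmjd4 had a log2 fold change of 0.96 (SE 0.20, adjusted p = 0.136). Jmjd1c had 63.2 and 60.7 CPM in labelled restored mice, against 98.4 and 136 CPM in ascorbate mice (log2 fold change -0.91, SE 0.25, adjusted p = 0.177). Kdm5a had 64.4 and 75.0 CPM, against 118 and 127 CPM (log2 fold change -0.81, SE 0.21, adjusted p = 0.166). Kdm3a had a log2 fold change of -0.70 (SE 0.20, adjusted p = 0.185).

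Here the histone demethylases lay to one side: 14 of 16 were below 0 and the median was -0.44, against 0.014 over all genes. Ranges were separate and lower in labelled restored mice for 10 of 16, against 22.1% of all genes. With the length and GC correction the median was -0.32 with 12 of 16 below 0, and without mouse 30 it was -0.26. The hydroxylase median was -0.28, that of ALKBH and FTO enzymes -0.13 and that of the others 0.049. The last was -0.035 with the correction and changed sign without mouse 21 or 30. Per library, the median deviation of the 16 histone demethylases from the PBS knockdown mean was -0.33 and -0.26 log2 units in labelled restored mice, 0.10 and 0.24 in ascorbate mice, 0.25 in the primary mouse and 0.17, -0.11 and -0.053 in PBS knockdown mice. This comparison shares its libraries with the previous ones.

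**Figure D5:**
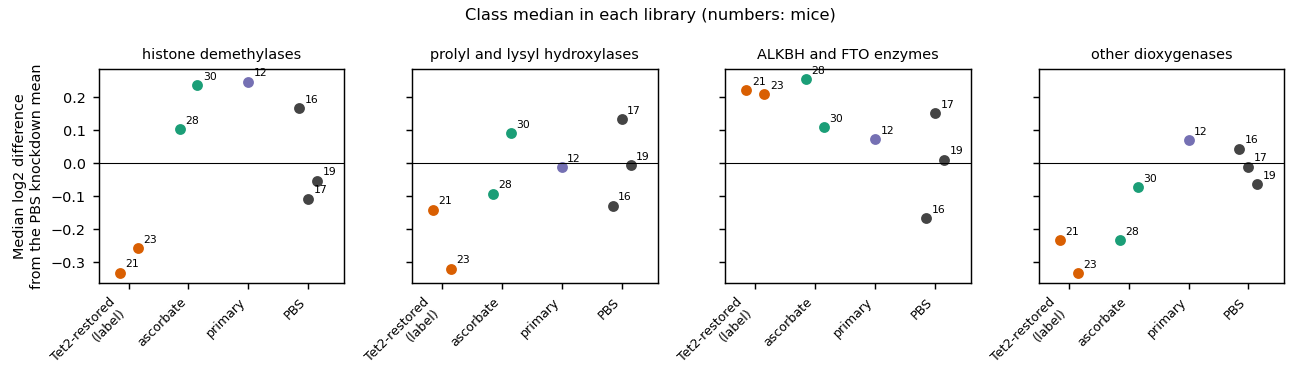
Median over the tested members of each class of log2(CPM + 0.5) minus the PBS knockdown mean, 1 point per library, labelled with the mouse number. Mice 21 and 23 are lowest for histone demethylases (-0.33 and -0.26), while for ALKBH and FTO enzymes they lie at 0.22 and 0.21, inside the range of the other libraries.

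The primary library was set against the 3 secondary PBS knockdown libraries. It has no replicate, and the fit of all 8 libraries lends it the spread of the replicated groups. Of 13024 genes 15 passed in edgeR (0.115%), and 0 of the 44 members tested did. At an unadjusted p under 0.05, 2 members were higher and 2 lower, against 4.39% and 4.69% of all genes. DESeq2 called 1 member (1.69% of genes), limma voom 2 (2.14%), edgeR without a filter on low counts 2 (1.99%) and with the length and GC correction 0 (0.154%). Egln3, with the counts given above, had the largest member fold change, 4.14 on the log2 scale (SE 0.78, adjusted p = 0.115). Neutrophil markers summed to 41.2 CPM in the primary library, against 0.323 to 8.13 CPM in PBS knockdown libraries (5 of 5 higher, median log2 fold change 3.605). B cell markers summed to 79.3 CPM, against 22.4 to 25.4 CPM, with 1 of 4 higher. Mast cell and basophil markers summed to 677 CPM, against 266 to 381 CPM (4 of 5 higher), and macrophage markers to 20.1 CPM, against 34.9 to 67.0 CPM (8 of 8 lower). Erythroid markers summed to 3916 CPM, against 4940 to 12030 CPM (6 of 6 lower). Progenitor markers summed to 869 CPM, against 439 to 681 CPM (5 of 5 higher, median log2 fold change 0.89). The part of these markers in the results was not tested. Phyh had 15.4 CPM in the primary mouse, against 33.4, 29.3 and 35.1 CPM in PBS knockdown mice (log2 fold change -1.08, SE 0.26, adjusted p = 0.185). Ogfod1, a prolyl hydroxylase of a ribosomal protein, had 43.9 CPM, against 28.5, 24.3 and 23.7 CPM (log2 fold change 0.78, SE 0.27, adjusted p = 0.386). The histone demethylase median was 0.24 and 0.011 with the length and GC correction.

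The partners of these enzymes were counted from lists chosen together with the members. In the EGLN-HIF list (HIF subunits, Vhl and its ligase partners), 0 of 8 tested genes passed in any comparison. Of all genes, 0% passed in labelled restored against PBS knockdown libraries and 2.86% under ascorbate. The shares for labelled restored against ascorbate and for the primary comparison are given above. In labelled restored libraries 3 of the list were higher and 3 lower at an unadjusted p under 0.05, against 14.1% and 15.2% of all genes. Hif3a, a HIF subunit of which some forms inhibit the others, had 16.0 and 8.53 CPM there, against 75.0, 27.5 and 35.0 CPM in PBS knockdown libraries (log2 fold change -1.90, SE 0.56, adjusted p = 0.0832). Arnt, the shared HIF partner, was at -0.47 (adjusted p = 0.106), Cul2, the scaffold of the ligase, at -0.55 (adjusted p = 0.0999) and Vhl, which recognises hydroxylated HIF, at 0.55 (SE 0.21, adjusted p = 0.129) on the log2 scale. Under ascorbate Vhl was at 0.66 on the log2 scale (SE 0.21, adjusted p = 0.113). Hif1a had 100.3 CPM in the primary mouse, which has no replicate, against 36.7, 29.0 and 31.6 CPM in PBS knockdown mice (log2 fold change 1.63, SE 0.40). Beside the same shares of all genes as for the EGLN-HIF list, 0 of 15 enzymes that supply or remove 2-oxoglutarate passed in any comparison. In labelled restored libraries 12 were below 0 with a median of -0.21, against -0.0020 over all genes. With the length and GC correction 14 were below 0 there, with a median of -0.20. Under ascorbate 8 were above 0 (median 0.013), and in the primary comparison 14 were (median 0.22).

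The writers that oppose the demethylases gave 1 call among 19 histone methyltransferases, lower under ascorbate, where 1.77% of all genes were called lower. Suv39h2, which trimethylates H3K9, had 6.41 and 7.36 CPM in ascorbate mice, against 20.8, 13.8 and 18.5 CPM in PBS knockdown mice (log2 fold change -1.37, SE 0.24, adjusted p = 0.0315), and the ranges did not meet. Suv39h2 passed in 16 of 20 settings and missed without mouse 16, 19, 28 or 30 (adjusted p = 0.108, 0.0968, 0.174 and 0.128). The other 18 histone methyltransferases did not pass under ascorbate, and in labelled restored libraries 0 of 19 passed, with 17 below 0 and a median of -0.46 (-0.15 with the length and GC correction). Of 11 m6A writers and readers 0 passed in either comparison, against 0% of all genes in labelled restored and 2.86% in ascorbate libraries. The median of the 11 was -0.58 in labelled restored and -0.24 in ascorbate against PBS knockdown libraries, and -0.45 and -0.023 with the correction. Mettl3, the catalytic subunit of the m6A methyltransferase, had 20.2 and 20.02 CPM in ascorbate mice, against 45.1, 41.8 and 40.7 CPM in PBS knockdown mice (log2 fold change -1.09, SE 0.35, adjusted p = 0.116). Tet3 had 62.3 and 71.1 CPM in ascorbate mice, against 109, 88.6 and 99.3 CPM in PBS knockdown mice (log2 fold change -0.58, SE 0.17, adjusted p = 0.0903).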

How the data were processed

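Per the labels' protocols, mRNA of 8 mice was caught on oligo-dT beads and made into 1 NEXTflex library per mouse. The counts the authors deposited are whole numbers for each gene symbol, not normalized. The FPKM values the authors deposited cover the same libraries. STAR, featureCounts and DESeq2 were used with mm10 (GRCm38), per the submitters' processing notes; versions, settings and strand are not given in the sources used here. The library factors behind the deposited FPKM matched DESeq2 size factors (largest difference 5.0e-06) and not library totals (0.0723). By GENCODE vM21 (GRCm38), which holds 46 members, 21 share exonic bases with another gene, so their counts may hold reads of it. Besides the overlaps named above, they include Jmjd6, Hspbap1, Kdm7a, Kdm6b, Kdm2b, Kdm5a, Alkbh3, Alkbh6 and Plod3.

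Genes were tested in R 4.3.3 with edgeR 4.0.16, by its robust quasi-likelihood fit on TMM factors after filterByExpr (minimum count 10), with Benjamini-Hochberg adjustment over all genes tested and a threshold of 0.05. The 3 comparisons of secondary libraries share 1 fit of 7 libraries, and the primary comparison uses all 8. SE is that of the log2 fold change. Nothing says whether the mice came from separate primary tumours, so p-values measure only the spread between these samples. The scripts were tested on simulated counts. Class medians carry no test.

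Alternatives were other scaling factors, a length and GC offset (splines with 5 degrees of freedom fitted in each library), DESeq2 1.42.0, limma 3.58.1 (voom with quality weights, and limma-trend on log2 of FPKM plus 0.1 or 1 where 2 libraries reach 1 FPKM), other count filters, other library sets and each of the 7 secondary mice left out. The members and lists were chosen with earlier results of these data known. Named in full are members past the threshold in any comparison and the 6 with the smallest p in the restored and ascorbate comparisons, with the highest and lowest member of each class and up to 4 genes of each partner list; others shown beside them were chosen after their values were seen.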

Additional observations from a re-analysis of the deposited data

How the results depend on the processing

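No paired analysis was possible because the groups share no mouse numbers, which name single animals. With 2 or 3 mice a group, depth of 18.1 M to 34.2 M counts limits only the weakest members, while left-out libraries move most counts of calls. Leaving out a mouse can leave a group with 1, which also loosens the count filter and adds low members. The fit of all 8 libraries and the one with no filter add low hydroxylases too, so that their medians cover other genes. For each count or median below that moved, the cause was not tested.

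Labelled restored against PBS knockdown gave 0 calls over all genes and 0 to 1692 with 1 mouse left out (0 to 5 members). It gave 367 genes and 1 member with DESeq2 size factors, 345 and 1 with upper quartile factors, 1951 and 6 with the DESeq2 Wald test, 2207 and 7 with no filter on low counts, and 321 and 1 with at least 1 CPM in 2 libraries. With a mouse left out, medians ran from -0.42 to -0.23 for histone demethylases, -0.44 to -0.17 for hydroxylases and -0.35 to -0.18 for the others. The length and GC offset gave 0.00084 for histone demethylases, and upper quartile factors -0.13 for the others.

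Ascorbate against PBS gave 347 genes and 2 members, and 2 to 796 genes and 0 to 4 members with 1 mouse left out. It gave 557 and 5 with the offset, 1339 and 5 with the DESeq2 Wald test, 1105 and 4 with limma voom, 1498 and 7 with no filter, and 855 and 4 with only the groups compared. Library totals, FPKM + 0.1 and FPKM + 1 gave 1 member each, counts that are not set beside a share of all genes here. The histone demethylase median was 0.27 with the offset. The hydroxylase median ran from -0.34 to 0.11 with a mouse left out and was -0.28 with no filter and -0.24 with all 8 libraries. That of the others ran from -0.27 to -0.088 and was -0.27 with library totals.

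Labelled restored against ascorbate gave 1 gene and 0 members, and 0 to 5 genes with a mouse left out. It gave 3 genes with the offset, FPKM + 0.1, FPKM + 1 or all 8 libraries, 0 with only the groups compared, 444 genes and 4 members with the DESeq2 Wald test, and 582 and 4 with no filter. Medians with a mouse left out ran from -0.58 to -0.26 for histone demethylases, -0.27 to -0.065 for hydroxylases and -0.13 to 0.13 for the others. Hydroxylases had 0.13 with no filter and -0.040 with all 8 libraries. The others had 0.17 with library totals, 0.14 with upper quartile factors and -0.035 with the offset; these 2 factors shift the median of all genes to 0.13 and 0.11.

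The primary comparison gave 15 genes, and 6 to 45 with a mouse left out. It gave 220 genes and 1 member with the DESeq2 Wald test, 279 and 2 with limma voom, 467 and 2 with no filter, 8 genes with FPKM + 0.1 and 5 with at least 1 CPM in 2 libraries. Medians moved to 0.011 for histone demethylases with the offset and to 0.0059 for the others with upper quartile factors, and ran from -0.091 to 0.16 for ALKBH and FTO enzymes with a mouse left out.

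For the 6 members with the smallest p in each of the restored and ascorbate comparisons, 181 alternative values kept their sign and side of the threshold, 33 passed where they had not, 12 no longer passed and 0 turned their sign. Over all tested members, 16 of 42 turned their sign under at least 1 alternative in labelled restored against PBS knockdown, 13 of 42 in ascorbate against PBS, 14 of 42 in labelled restored against ascorbate and 18 of 44 in the primary comparison. Among them was Alkbh5 under ascorbate, at 0.045 with the offset.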
